A study of Rattus norvegicus with 3 samples.

Results

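Troponins and sarcomeric actins are proteins of the thin filament of striated muscle. Their genes were followed in tendon stem/progenitor cells (TSPCs), which are cultured cells grown out of rat Achilles tendon. All probe sets to which the platform's table gives a single gene symbol were taken if that symbol was *Tnnc1*, *Tnnc2*, *Tnni1*, *Tnni2*, *Tnni3*, *Tnnt1*, *Tnnt2*, *Tnnt3*, *Acta1* or *Actc1*. Of these 10 genes, 9 were measured, by 12 of the 31042 probe sets of the array. *Actc1* had no probe set of its own, since the 5 probe sets named for it are also named for *Acta2*, and they were not used. The genes were chosen with their signals known, so all values are descriptions and no test was made.

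TSPCs-1d, TSPCs-7d and TSPCs-56d came from Achilles tendons of rats aged 1, 7 and 56 days. Tissue of at least 2 animals was mixed for each age, and the cells that migrated out were grown as colonies from very low density, so that each culture was polyclonal. RNA was taken at passage 2 and hybridized to an Affymetrix Rat Genome 230 2.0 array, on which each transcript is read by a set of short probes. There was 1 array per age. No difference between ages has a replicate check, and age cannot be told apart from the culture or the array. Fewer cells that make a transcript and less of it per cell cannot be told apart in such bulk RNA either.

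In striated muscle, tropomyosin lies along the actin filament and blocks the sites to which myosin binds. Troponin C binds calcium, troponin I holds the filament in the blocked state and troponin T ties the complex to tropomyosin. Slow skeletal, fast skeletal and cardiac muscle use different genes for these subunits, except that slow skeletal and cardiac muscle share a troponin C gene. The genes mark differentiated muscle. Tendon fibroblasts are not striated muscle, although cultured mesenchymal cells often build contractile stress fibres from smooth muscle and non-muscle actins.

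The signals are linear intensities, whose array medians were 107, 108 and 114 in order of age. A signal under 48.9, the 25th percentile of all signals, is called dim here and was raised to that level before a ratio was taken, so that a fold change with a dim signal on a single side is a lower bound. No ratio is given where both signals were dim, but such a pair entered every median log2 ratio below as 0. A gene whose lower bound is under 2-fold was not counted as past 2-fold, so the counts below can miss such genes. The only guide to error comes from pairs of probe sets of the same gene on the same arrays. Among 1292 genes with 2 probe sets above the median signal, 10% of the pairs differed in log2 ratio by more than 0.38 between 7 days and 1 day, 0.51 between 56 days and 1 day and 0.43 between 7 and 56 days. This spread is technical and does not include the variation between cultures. The comparisons share arrays with each other. The tendon transcription factor gene *Scx* had signals of 2255, 2578 and 2569 and the collagen gene *Col1a1* 14491, 14736 and 14286 in order of age, while other tendon markers (*Thbs4*, *Fmod*, *Tnc* and *Tnmd*) differed by over 2-fold between ages and are given with the tendon list.

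*Tnnc1*, the troponin C of slow skeletal and cardiac muscle, had lower signals at each step of age, over a very wide range. Its only probe set read 6489 at 1 day, 951 at 7 days and 127 at 56 days. The signal was high at 1 day, lower at 7 days and close to the median of the array at 56 days. Relative to TSPCs-1d, it was 6.82-fold lower in TSPCs-7d (log2 ratio -2.77) and 51.0-fold lower in TSPCs-56d (log2 ratio -5.67). Between 7 and 56 days the difference was 7.48-fold. Among all 31042 probe sets, 0 had a lower ratio of TSPCs-56d over TSPCs-1d, and 2 had a lower ratio of TSPCs-7d over TSPCs-1d. With a single probe set, no second set of probes could be compared.

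*Tnnc2*, the troponin C of fast skeletal muscle, was dim at all ages. It read 34.2, 29.4 and 26.3 in order of age, and no ratio between them can be read. The large signal of troponin C in the youngest culture was therefore seen for the slow and cardiac gene and not for the fast one, though a dim signal does not show that the transcript was missing.

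The signals of the troponin I genes lay between 65.7 and 267, and the highest were those of *Tnni2*. *Tnni2*, the fast skeletal inhibitor subunit, had signals of 172 at 1 day, 204 at 7 days and 267 at 56 days. It was 1.18-fold higher at 7 days and 1.55-fold higher at 56 days than at 1 day, under the 2-fold cutoff of the study's methods. *Tnni1*, the slow skeletal inhibitor subunit, has a pair of probe sets, with 92.4, 92.4 and 123 in the brighter one and 73.8, 83.2 and 94.2 in the weaker one. Both were highest in TSPCs-56d, where they stood 1.33-fold and 1.28-fold above TSPCs-1d. *Tnni3*, the cardiac inhibitor subunit, had signals of 65.7, 73.5 and 92.2, a 1.40-fold higher level at 56 days than at 1 day. None of these ratios reached 2-fold, and the genes gave no counterpart to the difference of *Tnnc1*.

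Among the troponin T genes, which anchor the complex, most signals were dim. *Tnnt1*, the slow skeletal subunit, had 43.4, 31.1 and 40.1 in order of age and was dim throughout. *Tnnt2*, the cardiac subunit, had 44.4, 59.2 and 56.9 in its brighter probe set, of which the first is dim, and 16.5, 9.37 and 19.5 in its weaker one. *Tnnt3*, the fast skeletal subunit, had 101, 112 and 136 in its brighter probe set and 31.02, 32.04 and 46.29 in its weaker one, which was dim at all ages. For *Tnnt3* the brighter probe set gave a 1.35-fold higher level at 56 days than at 1 day. Both probe sets of this gene, and also the weaker one of *Tnnt2*, were highest in TSPCs-56d, but where all 3 signals are dim their order cannot be read.

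Leaving out *Tnnc1* and *Acta1*, 10 probe sets remain for the other 7 troponin genes. Their signals ran from 16.5 to 172 at 1 day, from 9.37 to 204 at 7 days and from 19.5 to 267 at 56 days. In all, 4 of them were dim on all 3 arrays, 1 was dim in TSPCs-1d alone and 5 were never dim. All of these 5 were highest in TSPCs-56d, with the highest signal between 1.28 and 1.55 times the lowest. Over the whole array, 43.9% of the probe sets that were never dim were highest in TSPCs-56d (31.8% with arrays scaled to equal medians), so a small shift of this kind was common.

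**Figure D1:**
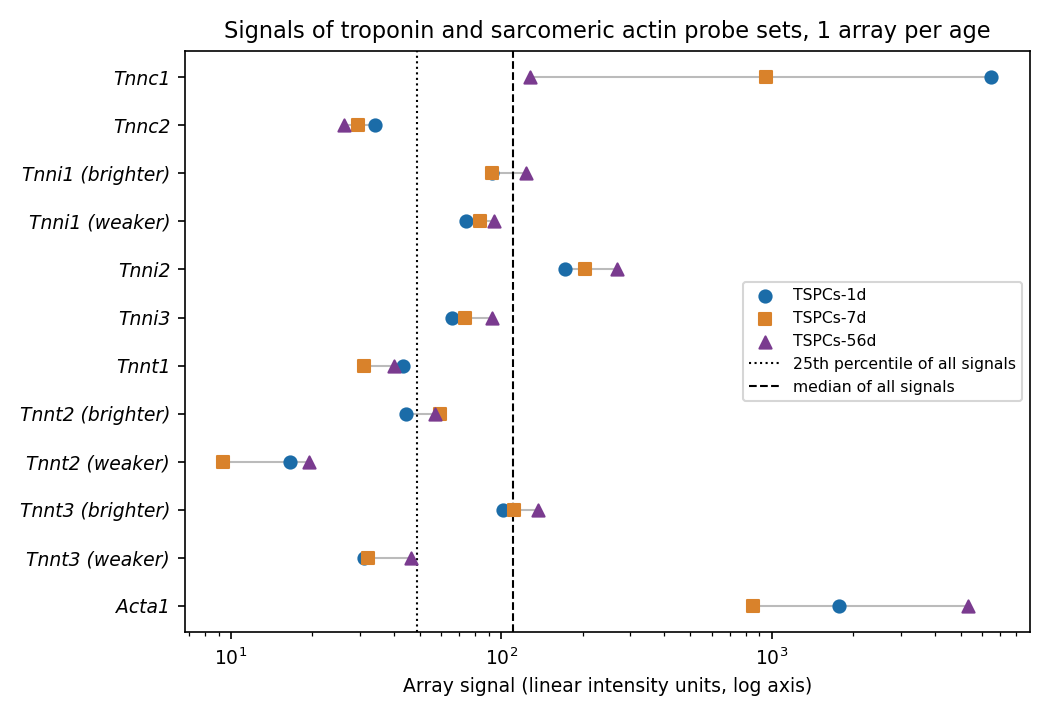
Array signal (linear intensity units on a log axis) of the 12 probe sets of troponin genes and *Acta1*, with 1 point per array and lines at the 25th percentile (dotted) and the median (dashed) of all signals. *Tnnc1* spans 6489 to 127 and *Acta1* 5327 to 855, while the other 10 probe sets lie at 267 or below on all 3 arrays.

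*Acta1*, the actin of skeletal muscle thin filaments, followed another course. The probe set read 1772 at 1 day, 855 at 7 days and 5327 at 56 days. The level was lowest at 7 days and highest at 56 days, when *Tnnc1* was lowest. Against TSPCs-1d, *Acta1* was 2.07-fold lower at 7 days, which is just past the 2-fold cutoff, and 3.01-fold higher at 56 days. Between TSPCs-7d and TSPCs-56d the difference was 6.23-fold, and 16 of all 31042 probe sets had a lower ratio of TSPCs-7d over TSPCs-56d. Actin genes are very alike in their coding sequence, and whether the probes of *Acta1* also bind transcripts of other actins was not tested.

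The region just before the start of *Acta1* is shown because this was the only sarcomeric actin gene measured on its own. Its promoter is a well-known target of serum response factor, which binds CArG boxes and drives actin genes in muscle cells and in fibroblasts. The 250 bases before the start are from RefSeq (rat assembly GRCr8, chr19:68784195-68784444, minus strand), with matches to the CArG box, to CATTCC and to TATAAA in capitals, in this order.
*Acta1* upstream region: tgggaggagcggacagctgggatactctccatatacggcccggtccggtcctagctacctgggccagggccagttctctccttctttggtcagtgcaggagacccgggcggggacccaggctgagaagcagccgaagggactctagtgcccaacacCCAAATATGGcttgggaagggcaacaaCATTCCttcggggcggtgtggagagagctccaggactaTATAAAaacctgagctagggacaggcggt

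The CArG box (CCAAATATGG) starts 94 bases before the start of the gene, CATTCC, the core of the MCAT element bound by TEAD factors, 67 bases before it and TATAAA 29 bases before it. These matches do not overlap. The table holds windows of 300 bases, of which 50 follow the start, for 8 of the 10 genes (9 windows), and none for *Tnnc1* and *Tnnt3*. Searched on both strands, the CArG box was found in the windows of *Acta1* and *Actc1* and in 1.64% of all 33469 windows of the table. CATTCC was found in those of *Acta1* and *Tnnt2* and in 14.2% of all windows, and TATAAA in those of *Acta1*, *Tnni2* and *Tnnt1* and in 14.2% of all. The E-box letters CANNTG were in 7 of the 9 windows and in 72.1% of all, and the MEF2 site was in none of the 9 and in 3.29% of all. A match says only that the letters are there.

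Of the 12 probe sets, 2 were over 2-fold lower at 7 days than at 1 day (*Tnnc1* and *Acta1*) and 0 were higher, where 0.631% of all probe sets were lower and 1.04% higher. In TSPCs-56d vs. TSPCs-1d, 1 was higher (*Acta1*) and 1 lower (*Tnnc1*), with 1.09% and 1.24% of all probe sets. In TSPCs-7d vs. TSPCs-56d, 1 was higher (*Tnnc1*) and 1 lower (*Acta1*), with 1.18% and 0.918% of all. The same genes account for every count. Nothing is read from these shares, as the genes were chosen on these values. The median log2 ratio of the 12 probe sets was 0.00, 0.29 and -0.09 in the comparisons in that order, and that of all probe sets was 0.00 in each. The 4 probe sets that were dim on all 3 arrays entered these medians as 0, which draws the medians toward 0. The member nearest to the cutoff on its inner side was *Acta1* at 2.07-fold, and on its outer side *Tnni2* at 1.55-fold.

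**Figure D2:**
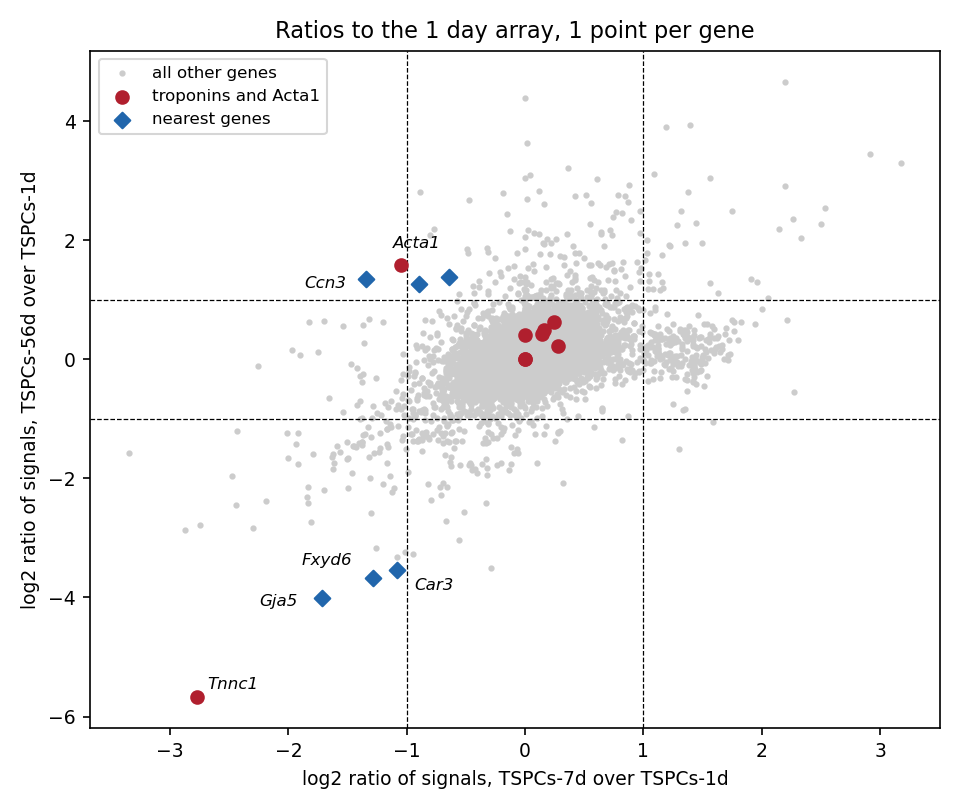
Log2 ratios to TSPCs-1d of the signals of TSPCs-7d (horizontal) and TSPCs-56d (vertical), 1 point per gene (its brightest probe set, dim signals raised), with troponins and *Acta1* in red, the genes nearest to *Tnnc1* or *Acta1* in blue and dashed lines at 2-fold. On the vertical axis *Tnnc1* lies lowest of all genes, at -2.77 and -5.67, *Acta1* lies at -1.05 and 1.59, and the other troponins lie near the origin.

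The genes whose ratios to TSPCs-1d lay nearest to those of *Tnnc1* were *Gja5*, a gap junction connexin, *Fxyd6*, a regulator of the sodium pump, and the carbonic anhydrase gene *Car3*, which is abundant in slow muscle. Over 9405 genes above the median signal, nearness was the Euclidean distance in the plane of both log2 ratios, over 3 arrays, and was 1.98, 2.49 and 2.73 for these genes. The signals of *Gja5* were 1715, 522 and 107 in order of age, with a weaker probe set that was dim throughout (37.6, 35.5 and 31.95). Those of *Fxyd6* were 853, 349 and 67.0. *Car3* read 5356, 2536 and 463 in the brighter probe set (11.6-fold lower at 56 days than at 1 day) and 755, 321 and 159 in the weaker one (4.74-fold lower). Such distances are wide, so *Tnnc1* stood well apart even from its neighbours.

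For *Acta1*, the nearest genes were *Qpct*, an enzyme that forms pyroglutamate, at a distance of 0.36, *Ccn3*, a matricellular protein, at 0.38 and the unnamed locus *LOC100910973* at 0.46. *Ccn3* read 796, 314 and 2020 in order of age. *Qpct* had 95.9, 51.5 and 230, and *LOC100910973* 252, 162 and 657. All of them were lowest at 7 days and highest at 56 days.

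The rest of the sarcomere was then read from gene lists, each gene by its brightest probe set. The share of all 14216 genes past 2-fold was 1.7% higher and 0.802% lower in TSPCs-7d vs. TSPCs-1d, and 1.65% and 1.37% in TSPCs-56d vs. TSPCs-1d. Median log2 ratios of all genes were 0.00 in both. Of 13 genes that regulate the thin filament, 0 passed the cutoff in either comparison, with medians of -0.04 and 0.00. The tropomyosin genes *Tpm1* (10958, 8874 and 10532) and *Tpm2* (15892, 14417 and 15740), which are also made in smooth muscle and fibroblasts, had high signals at all ages in their brightest probe sets, which differed little between them. The weaker probe sets of *Tpm1* were not all level. Of its 7 probe sets, 2 were over 2-fold lower in TSPCs-7d than in TSPCs-1d, with 1044, 454 and 496 in one and 1026, 498 and 663 in the other, and the former was also 2.10-fold lower in TSPCs-56d. *Klhl41*, a partner of nebulin, had 158, 284 and 124, with a difference of 2.28-fold between 7 and 56 days.

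Of 21 sarcomeric myosins and thick filament genes, 0 were higher and 2 lower in each comparison. These were *Myom1*, which encodes a protein of the M band, with 404, 155 and 155, and the cardiac myosin gene *Myh6*, with 107, 43.7 and 43.3, at least 2.20-fold lower at 7 and at 56 days in a probe set whose weaker counterpart was dim throughout (34.7, 40.1 and 39.99). In this list 12 of the 21 genes had all signals under the median, beside 4325 of all 14216 genes. The slow myosin gene *Myh7* had 88.7, 83.0 and 68.1. The fast myosin gene *Myh4* (29.6, 23.7 and 27.4) and the perinatal gene *Myh8* (5.23, 3.46 and 3.26) were dim at every age. *Myh1* is a fast myosin gene for which the platform's table names 5 probe sets, and the brightest had 3149, 2641 and 2782. Of the 5, 3 are of kinds that can be shared between transcripts. Those of the plain kind had 1486, 1407 and 986 in the brighter one and 286, 353 and 278 in the weaker one. Whether these probe sets read *Myh1* alone was not tested, so this name is uncertain.

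Among 16 genes of the Z disc, which anchors the actin filaments, 2 were lower and 0 higher in TSPCs-7d vs. TSPCs-1d, and 1 was lower and 0 higher in TSPCs-56d vs. TSPCs-1d (medians -0.25 and -0.34). *Pdlim3*, a partner of alpha-actinin, had 492, 129 and 184 and was 3.83-fold and 2.67-fold lower. *Ldb3*, another such partner, was 2.13-fold lower at 7 days and 1.45-fold lower at 56 days, with 427, 200 and 295. Of all 6 probe sets of *Ldb3*, 2 were over 2-fold lower at 7 days and 1 at 56 days, and they did not give the same course. The next brightest had 120, 100 and 133, another 145, 32.6 and 71.2, and the rest 93.4 or less on every array. Desmin, the intermediate filament of muscle, was near the dim level, with *Des* signals of 47.2, 36.6 and 58.8. Over the thin filament, thick filament and Z disc lists together, 26 of 50 genes had all 3 signals under the median of all signals. That held for 4325 of all 14216 genes. Of the 50, 4 were lower and 0 higher at 7 days than at 1 day, and 3 were lower and 0 higher at 56 days.

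**Figure D3:**
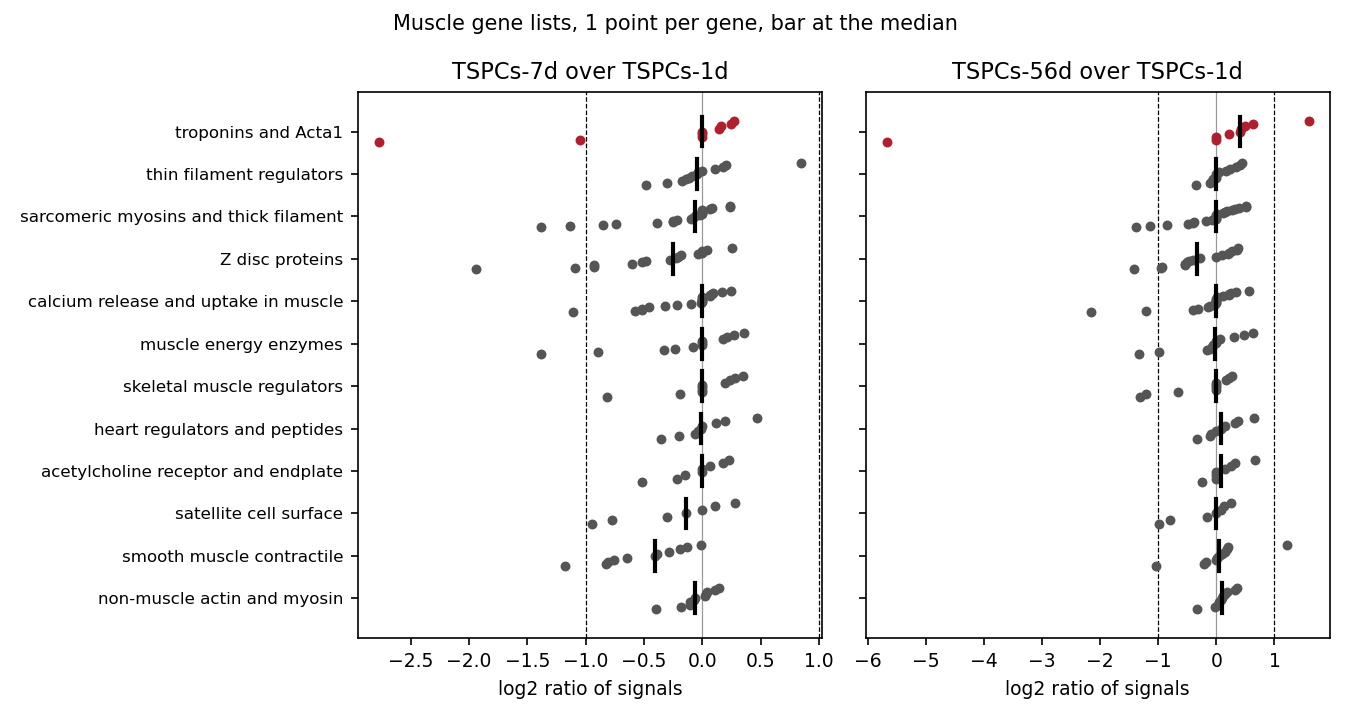
Log2 ratio of signals over TSPCs-1d for TSPCs-7d (left) and TSPCs-56d (right), 1 point per gene by its brightest probe set, with troponins and *Acta1* in red, 11 other lists in grey, a black bar at each median and dashed lines at 2-fold. Genes dim on both arrays are drawn at 0. In both panels *Tnnc1* is the lowest point, at -2.77 and -5.67.

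Of 20 genes that release and take up calcium in muscle, 5 were dim on all arrays and count as 0 in the medians. Of all 14216 genes, 1784 were dim on all arrays. In TSPCs-7d vs. TSPCs-1d 0 were higher and 1 lower, and in TSPCs-56d vs. TSPCs-1d 0 were higher and 2 lower (medians 0.00 and 0.00). *Pln*, the inhibitor of the calcium pump in cardiac, slow and smooth muscle, had 5884, 2729 and 1321 in order of age, which is 2.16-fold and 4.45-fold lower than in TSPCs-1d. Its next probe set gave 4244, 1750 and 871. *Casq2*, the calcium store protein of cardiac and slow muscle, had 4877, 3410 and 2117, and its weaker probe set 1187, 763 and 426. Both genes were lower at each step of age, in the order of *Tnnc1* and by a smaller fold. The pump gene *Atp2a2* that *Pln* acts on had 2598, 2428 and 3002, and the cardiac and skeletal release channel genes *Ryr2* (38.8, 38.84 and 35.96) and *Ryr1* (78.2, 54.6 and 70.8) had low or dim signals.

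Of 12 energy enzymes of muscle, 1 was lower in TSPCs-7d vs. TSPCs-1d and 1 in TSPCs-56d vs. TSPCs-1d, with 0 higher in both (medians 0.00 and -0.03). *Fabp3*, the fatty acid carrier of heart muscle, had 4475, 1716 and 2270 and was 2.61-fold lower at 7 days. *Cox6a2*, the muscle form of a cytochrome oxidase subunit, had 854, 460 and 338 and was 2.53-fold lower at 56 days. The creatine kinase gene *Ckm* had 102, 118 and 127, and the myoglobin gene *Mb* was dim, with 22.1, 19.8 and 22.8. Both are abundant transcripts of differentiated muscle. In this list *Fabp3* and *Cox6a2* were highest at 1 day, as *Tnnc1* was, while *Ckm* was not and *Mb* was dim. The part of muscle cells in these signals was not tested.

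**Figure D4:**
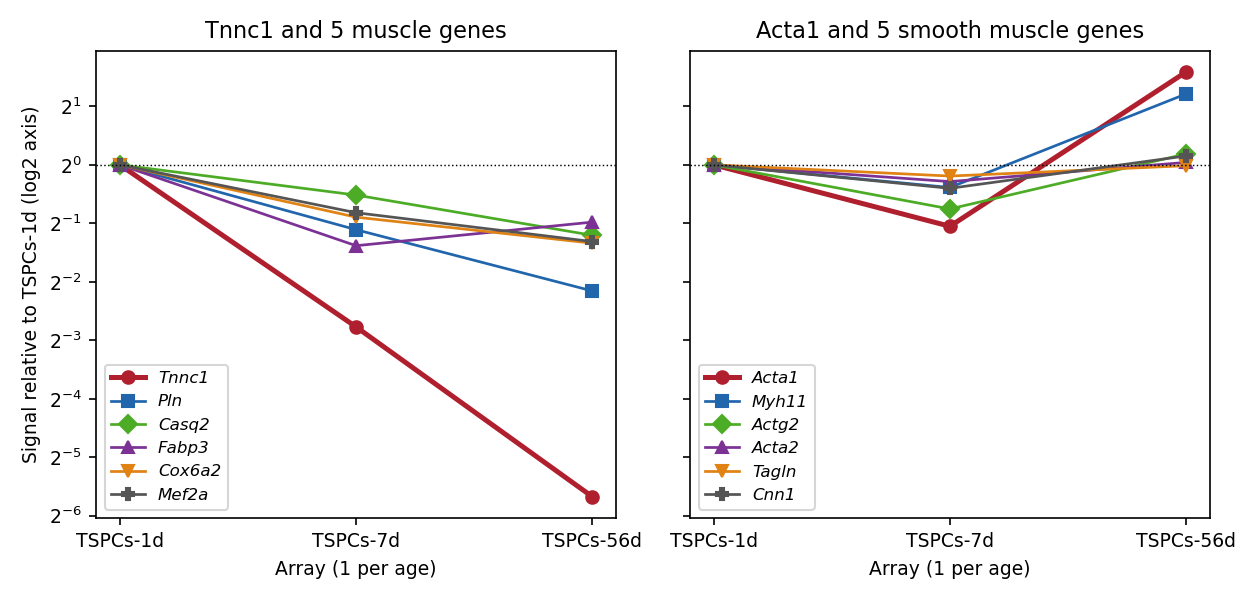
Signal relative to TSPCs-1d (log2 axis) on the 3 arrays, 1 line per gene, for *Tnnc1* with 5 muscle genes that were over 2-fold lower than in TSPCs-1d on at least 1 array (left) and *Acta1* with 5 smooth muscle markers (right). *Tnnc1* ends 51.0-fold lower and *Pln* 4.45-fold lower, while *Acta1* ends 3.01-fold and *Myh11* 2.32-fold higher. The 5 muscle genes were picked for being lower, so their common direction is no result. Others that were also over 2-fold lower, such as *Pdlim3* and *Myom1*, are not drawn. Nor are genes of the same lists with another course, such as *Ckm* and *Atp2a2*.

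Of 10 measured skeletal muscle regulators, 0 passed the cutoff in TSPCs-7d vs. TSPCs-1d, and 2 were lower in TSPCs-56d vs. TSPCs-1d. These were *Mef2a* (3032, 1720 and 1222) and *Mef2c* (642, 563 and 278), transcription factor genes that are active in muscle and in many other cells. The factors that define the skeletal lineage had low signals in all cultures: *Myod1* with 23.6, 29.0 and 32.5, *Myf6* with 23.6, 25.2 and 27.4 and *Myog* with 44.6, 56.0 and 54.8. *Myf5* and *Pax7* had no probe set of a single name. The summed signal of the list was 4340 at 1 day, 3071 at 7 days and 2171 at 56 days, of which *Mef2a* was the larger part, and the part of muscle cells in the signal of *Tnnc1* was not tested.

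Of 9 heart regulators and peptides, 8 endplate genes and 7 surface genes of satellite cells, 0 were past 2-fold in either comparison. The cardiac peptide gene *Nppa* had 55.9, 54.4 and 59.4 and the cardiac factor gene *Gata4* 82.5, 94.5 and 91.0. Of other heart factor genes, *Nkx2-5* had 240, 238 and 302, and *Tbx5* was dim with 17.8, 18.8 and 12.55. In the heart list 6 of the 9 genes reached the median on at least 1 array, as did 9891 of all 14216 genes. The highest of the list was *Hand2* with 1068, 930 and 852. Summed signals were 2466, 2292 and 2411 for the heart list and 831, 852 and 917 for the endplate list, with little difference between ages. For the satellite cell list they were 2542, 1938 and 2283. In that list *Cxcr4* came nearest to the cutoff, with 274, 142 and 138 in its brightest probe set. This was 1.93-fold lower in TSPCs-7d and 1.99-fold lower in TSPCs-56d than in TSPCs-1d. Its next probe set read 39.0, 48.0 and 73.1 and was dim at 1 and 7 days.

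Most smooth muscle contractile genes had high signals. *Kcnmb1*, a potassium channel subunit gene (171, 110 and 148), and *Synm* were nearer to the median, and the others had 774 or more on every array. Of 11 genes, 1 was lower and 0 higher in TSPCs-7d vs. TSPCs-1d, and 1 was higher and 1 lower in TSPCs-56d vs. TSPCs-1d (medians -0.40 and 0.04). *Acta2*, the smooth muscle actin, had 9048, 7419 and 9316, and *Actg2*, the enteric form, 3742, 2219 and 4261. The smooth muscle myosin gene *Myh11* had 2186, 1671 and 5067 in a probe set that may be shared between transcripts and 109, 152 and 198 in its weaker one. The order of *Acta1*, lowest in TSPCs-7d and highest in TSPCs-56d, was that of 7 of the 11 genes and of 20.1% of all genes. With arrays scaled to equal medians it was that of 5 of the 11 and of 14.8% of all, as *Acta2* and *Lmod1* were then highest in TSPCs-1d. The calponin gene *Cnn1* (5581, 4226 and 6204) kept this order under both, and so did *Mylk*, the myosin light chain kinase gene (2080, 1172 and 2385), which was 2.04-fold lower in TSPCs-7d than in TSPCs-56d. *Tagln* (15531, 13601 and 15373), *Smtn* (1196, 1096 and 1059), *Kcnmb1* and *Synm* did not have it. The differences of *Acta1* were larger than those of each of the 11 genes in TSPCs-56d vs. TSPCs-1d and in TSPCs-7d vs. TSPCs-56d. The one that was lower in both was *Synm*, an intermediate filament gene, with 310, 138 and 151 in the brightest of 3 probe sets, of which the weaker ones read 56.1 or less. The summed signal of the list was 51463, 42627 and 56354, and its part in the difference of *Acta1* was not tested.

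Non-muscle actins and myosins gave 0 of 11 genes past the cutoff, with medians of -0.06 and 0.10. For *Srf*, the factor that binds CArG boxes, the signals were 1515, 1504 and 1697, and of its list of 5 genes with cofactors 1 was higher in TSPCs-56d vs. TSPCs-1d (*Vgll3*, a cofactor of TEAD factors, with 400, 479 and 883). Among 9 tendon genes, 2 were higher in TSPCs-7d vs. TSPCs-1d, and 2 were higher and 1 lower in TSPCs-56d vs. TSPCs-1d. The matrix protein gene *Thbs4* was higher in both, 4.44-fold and 4.55-fold, with 76.5, 340 and 348. *Fmod*, a proteoglycan gene, was 2.85-fold higher at 7 days (271, 774 and 408), and the tenascin gene *Tnc* 2.12-fold higher at 56 days (5280, 7303 and 11185). The lower one was the tendon membrane protein gene *Tnmd*, with 543, 351 and 158. The tendon markers thus had no common direction.

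Other cell types were read by their markers. In TSPCs-7d vs. TSPCs-1d, 1 of 6 pericyte genes was lower (*Mcam*, with 2182, 930 and 927) and 0 of 5 endothelial, 6 leukocyte, 3 Schwann cell, 4 cartilage, 5 fat cell and 5 mesenchymal stem cell surface genes passed the cutoff. In TSPCs-56d vs. TSPCs-1d, *Mcam* was lower, the cartilage proteoglycan gene *Acan* was lower (8588, 8224 and 2874) and the surface enzyme gene *Nt5e* was higher (41.9, 49.3 and 110), while the endothelial, leukocyte, Schwann cell and fat cell lists had 0 past it. The endothelial marker *Pecam1* (23.3, 18.0 and 22.9) and the leukocyte marker *Ptprc* (20.8, 24.96 and 30.6) were dim on all arrays. Another leukocyte marker, *Cd68*, had 122, 109 and 143. The stem cell surface genes *Itgb1* (9072, 9000 and 9797), *Thy1* (5077, 5380 and 7201) and *Cd44* (1385, 1293 and 1331) had high signals at all ages. Of the other pericyte markers, *Pdgfrb* had 1464, 1280 and 1463, *Cspg4* 793, 659 and 622 and *Rgs5* 58.6, 36.6 and 41.2, dim at 7 and 56 days. None of these was past the cutoff. The pericyte list summed to 4595, 3001 and 3153, with *Mcam* included. Its part in the signal of *Tnnc1* was not tested.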

How the data were processed

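RNA of 3 TSPC cultures was measured on 1 Affymetrix array each. The authors' methods name both MAS5 and RMA for normalization and summary of the scans, while only MAS5 stands in the submitters' processing notes. The deposited values are linear signal intensities for 31042 probe sets, whose lowest value is 1. How MAS5 and RMA were combined is not given in the sources used here. No detection calls or control probe sets were used here. Signal over background is therefore unknown, and the number of arrays limits the precision.

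The platform's table gives 1 gene to 20826 probe sets, several to 436 and none to 9780. All 9 measured genes matched the RefSeq gene table of assembly GRCr8 by gene ID. Signals were raised to the 25th percentile, ratios were taken with a cutoff of 2 and no test was made. For each of 20 lists, the genes past the cutoff and the median log2 ratio were counted with the probe set of highest mean signal. The genes, lists and motifs were chosen with earlier results of these data known. Named from the lists are up to 5 genes each past the cutoff relative to TSPCs-1d with a signal at or above the median (110). Also named are measured markers of skeletal, heart and smooth muscle, tendon, stem cell surface, pericytes, endothelium and leukocytes. The sarcomeric myosin genes *Myh1*, *Myh4*, *Myh6*, *Myh7* and *Myh8* are named from a marker list of which any member could be picked. The 3 genes nearest to *Tnnc1* and to *Acta1* are named as well. A few more (*Atp2a2*, *Ryr1*, *Ryr2*, *Tpm1*, *Tpm2*, *Klhl41*, *Hand2*, *Cxcr4*, *Kcnmb1*, *Lmod1*, *Mylk*, *Smtn* and *Srf*) were picked after their values were seen. The calculation was tested on simulated data. Alternatives were scaling of the arrays to equal medians, quantile normalization, a loess curve (span 0.2), no floor, a floor at the median, a pseudocount of 32, cutoffs of 1.5 and 3, and other choices among probe sets. The tools were numpy 2.4.6, pandas 2.3.3, statsmodels 0.14.6 and matplotlib 3.10.9 under Python 3.11.15.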

Additional observations from a re-analysis of the deposited data

How the results depend on the processing

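Across the 3 comparisons and 6 ways to scale the arrays or treat dim signals, *Tnnc1* was 6.63-fold to 6.93-fold lower at 7 days and 41.0-fold to 54.5-fold lower at 56 days relative to TSPCs-1d, and the difference between 7 and 56 days was 6.18-fold to 7.90-fold. Against TSPCs-1d, *Acta1* was 2.03-fold to 2.10-fold lower at 7 days and 2.81-fold to 3.01-fold higher at 56 days, and it was 5.89-fold to 6.23-fold lower at 7 than at 56 days. A 3-fold cutoff left 1 probe set lower in TSPCs-7d vs. TSPCs-1d in place of 2 (*Acta1* was lost). A 1.5-fold cutoff gave 2 higher in TSPCs-56d vs. TSPCs-1d in place of 1 (*Tnni2* was added). Without the floor, 2 were lower in TSPCs-7d vs. TSPCs-56d in place of 1, the added one being the dim probe set of *Tnnt2*. The other 81 recomputed counts and medians stayed within 1.5 times the count or within the spread between probe sets of a gene. That spread is wider than the medians themselves, so it says little about them. The median in TSPCs-56d vs. TSPCs-1d ran from 0.00 with a floor at the median to 0.39 with no floor. In TSPCs-7d vs. TSPCs-56d it ran from 0.00 to -0.35 under the same settings. With 1 array per age no array could be left out. No paired analysis was possible because each age has a single array. What the dim signals can show is limited, as 4 of the 12 probe sets were dim on all 3 arrays.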
